A study of Homo sapiens with 2 samples.

Results

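The mitochondrial SLC25 carriers were examined in HepG2 cells, a line from a human hepatocellular carcinoma. Members were the 47 protein-coding genes whose symbol is SLC25A followed by a number, with SLC25A20 left out, and the 3 uncoupling protein genes UCP1, UCP2 and UCP3, making 50 of the 60623 gene entries in the count files. The rule used gene names and no measured value. Both groups were wild-type HepG2 cells exposed for 24 h to 1 mM FFA, a 2:1 molar mixture of oleic and palmitic acid bound to BSA, and 1 group (FFA + 9-cis-RA) received 10 μM 9-cis-RA as well. This retinoic acid isomer activates RXR and also RAR nuclear receptors. Poly(A) RNA of 1 library per group was sequenced with strand kept, and both libraries carry the same batch label. Cells without FFA were not analysed here, so each value describes steatotic cells of 1 tumor line.

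Most SLC25 proteins sit in the inner mitochondrial membrane, where they exchange metabolites between cytosol and matrix. ADP/ATP and phosphate carriers serve ATP synthesis, the citrate carrier exports carbon for fatty acid synthesis in the cytosol, and aspartate/glutamate and ornithine carriers connect mitochondria with the malate-aspartate shuttle and, in hepatocytes, the urea cycle. Uncoupling proteins belong to the same family. UCP1 lets protons leak back into the matrix of brown fat mitochondria, whereas UCP2 and UCP3 have less settled transport roles.

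The FFA file summed to 60821539 counts and the FFA + 9-cis-RA file to 57669670, of which the members took 240189 and 224544 (0.395% and 0.389%). All 6 hepatocyte markers were detected in both libraries, with a summed level of 13343 and 11160.2 TPM (a level corrected for gene length and scaled to the library total). Among blood cell markers PTPRC and HBB had no count, CD3E had 1 count in each library, and CD68 had 5 and 15. Stromal and endothelial markers ran from 1 to 184 counts, and of these PECAM1 had 52 and 29 (log2 fold change -0.79) and VWF 184 and 118 (-0.61). Their part in the members' values was not tested. The retinoid-responsive gene CYP26A1 had 4 counts in FFA and 709 in FFA + 9-cis-RA, which matches the labels. Differences are given as the log2 fold change of FFA + 9-cis-RA against FFA, taken on size-factor-normalized counts plus 1, for genes whose counts in both libraries add up to at least 10. Because each group is a single library, the spread between replicates is unknown and no p-value is given. In bulk RNA fewer cells of a kind and less RNA per cell cannot be told apart. The ranges in parentheses are 95% exact Clopper-Pearson intervals that cover counting error only and compare these 2 libraries, not the conditions.

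The ADP/ATP carriers dominated the family's transcript pool. SLC25A6 stood highest, at 1989 TPM in FFA and 1811 TPM in FFA + 9-cis-RA. SLC25A5, the second ADP/ATP carrier, followed at 1153 and 1243 TPM. These genes alone made up 65.6% and 65.1% of the family's summed level. The citrate carrier SLC25A1 came next with 326 and 299 TPM, and SLC25A39, a glutathione carrier, had 221 and 213 TPM. The phosphate carrier SLC25A3 had 133 and 156 TPM, and the aspartate/glutamate carrier SLC25A13, also called citrin, had 106 and 114 TPM. Below them stood SLC25A11, the oxoglutarate carrier, at 80.5 and 64.6 TPM, and SLC25A38, a glycine carrier needed for heme synthesis, at 65.9 and 73.6 TPM. The 8 genes together held 85.1% of the summed level in FFA and 84.6% in FFA + 9-cis-RA. At the other end, 15 members had a mean level under 10 TPM and 8 of these were under 1 TPM.

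Levels depend on the length assigned to each gene. The deposited length of SLC25A3 joins all its exons into 8896 bases, against 1678 bases for its principal transcript, and with principal transcript lengths its level was 489.7 TPM in FFA and 571 TPM in FFA + 9-cis-RA, which moved it from rank 5 to rank 3. On the same lengths SLC25A6 had 1039 and 944 TPM and SLC25A5 had 976 and 1050 TPM, so which of both ADP/ATP carriers was higher in FFA + 9-cis-RA turned with the length used. A ratio of TPM values between the libraries lies 0.090 higher on the log2 scale than a ratio of size-factor-normalized counts.

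**Figure D1:**
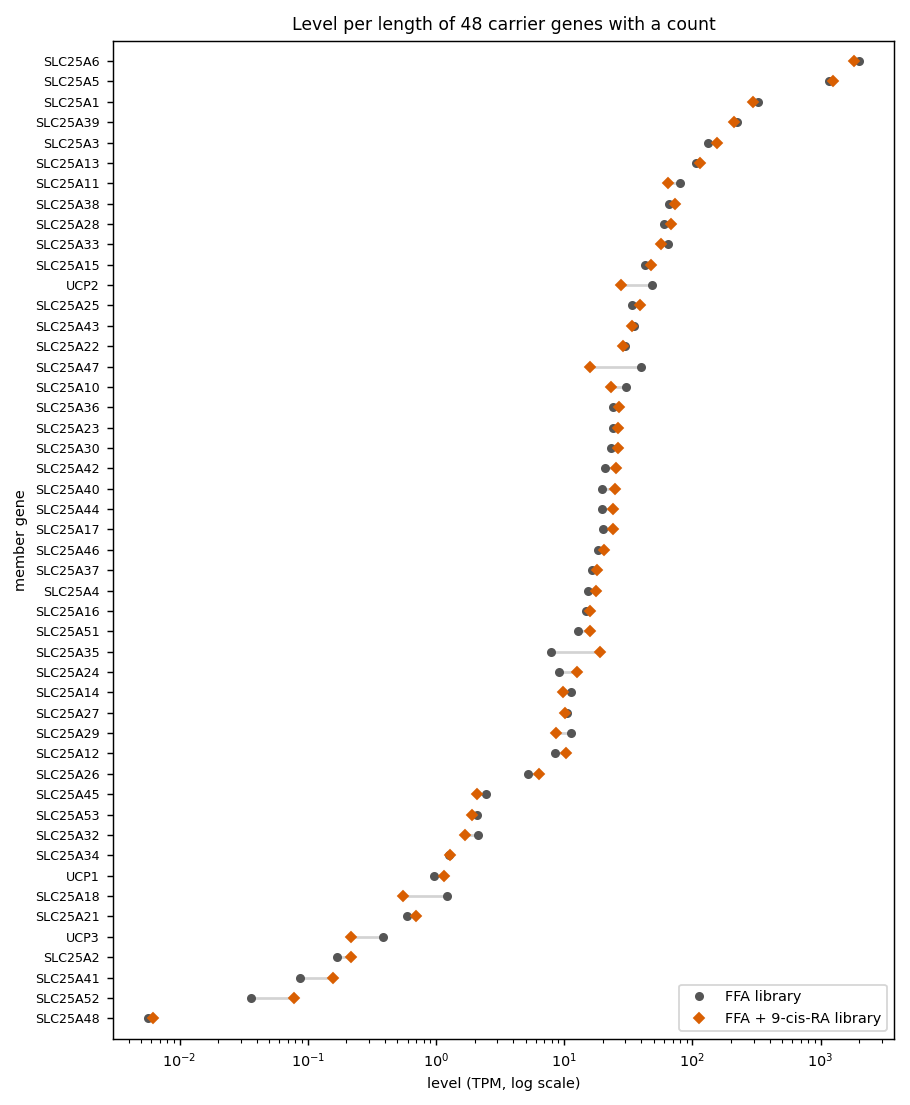
Level per gene length (TPM, log axis) of 48 of the 49 carrier genes with a count, with a circle for the FFA library and a diamond for the FFA + 9-cis-RA library, ordered by mean level. SLC25A6 at 1989 and 1811 TPM and SLC25A5 at 1153 and 1243 TPM lie far to the right, and for SLC25A35, SLC25A47, SLC25A18 and UCP2 the symbols stand visibly apart.

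Most carriers had similar counts in both libraries. Of the 50 members 46 reached the count minimum, and 41 of these had a log2 fold change within 0.5 of 0. SLC25A35 was the 1 member above 1, beside 3.37% of all genes compared, and SLC25A47 and SLC25A18 were the 2 members below -1, beside 4.9% of all genes. SLC25A35 was also the 1 member above 0.5 (9.03% of all genes), and 4 members were below -0.5 (14.3%), since UCP2 and UCP3 joined SLC25A47 and SLC25A18. Against all genes compared, the share of members was smaller at each of these thresholds. Because members were well counted, with a median of 4136 counts over both libraries against 1045 for all genes, genes with at least 500 counts are the closer comparison. In that range 1 of 39 members was above 1 (0.234% of all such genes) and the same gene was the 1 above 0.5 (2.14%), while 1 was below -1 (0.884%) and 2 were below -0.5 (5.11%). The members' shares in this range were 2.56% above 1, above 0.5 and below -1, and 5.13% below -0.5. Each was thus above that of all genes of the same depth, by less than 1 gene, so the direction of the comparison turned with the depth considered.

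The middle of the family lay near 0. The median log2 fold change of the 46 members was 0.021, with quartiles at -0.22 and 0.14, beside a median of -0.020 for all 20431 genes compared. For members with at least 500 counts the median was 0.024, beside 0.0037 for all genes of that depth. Positive values were found for 26 members and negative values for 20. The counting interval lay above 0 for 17 members (22.5% of all genes) and below 0 for 15 (25.7%), and it held 0 for 14. An interval leaves out 0 more readily at higher counts, and with at least 500 counts it lay above 0 for 17 of 39 members (33.2% of all such genes) and below 0 for 13 (34%). The summed level of the family was 4789.8 TPM in FFA and 4696 TPM in FFA + 9-cis-RA, a log2 ratio of -0.029 (-0.038 to -0.019). On this TPM scale the ratio was 0.043 without SLC25A6 and 0.017 with principal transcript lengths. On the size-factor scale used for the fold changes of single genes it was -0.12, and it stayed negative without SLC25A6 (-0.048) and with principal transcript lengths (-0.070).

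**Figure D2:**
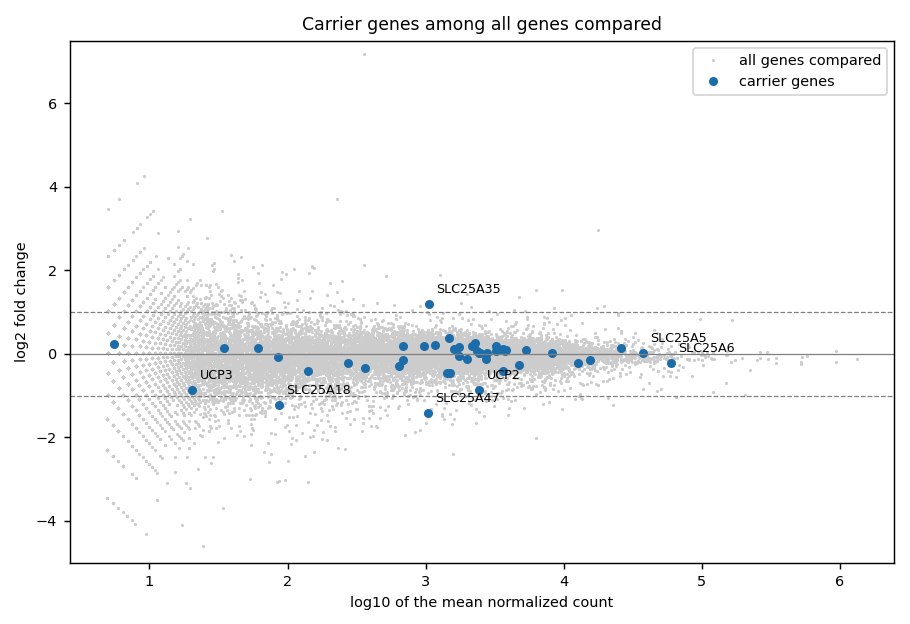
Log2 fold change of FFA + 9-cis-RA against FFA (vertical axis) by the log10 of the mean normalized count (horizontal axis), with 20431 genes compared in grey and the 46 carrier genes in blue. Most blue points lie close to 0, with SLC25A35 at 1.20 above the upper dashed line and SLC25A47 at -1.41 and SLC25A18 at -1.21 under the lower one.

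SLC25A35 was the carrier with the highest fold change. This sparsely studied member, a relative of the yeast oxaloacetate carrier, is annotated on chromosome 17 from 8287763 to 8295400 on the minus strand of GRCh38. It had 649 counts in FFA and 1459 in FFA + 9-cis-RA, or 7.82 and 19.1 TPM. The log2 fold change was 1.20 (1.06 to 1.33), which is 2.29-fold higher in FFA + 9-cis-RA, and the whole counting interval lay above 1. All 3 compared protein-coding genes within 50 kb had values between -0.16 and -0.030. They include RANGRF, which overlaps SLC25A35 on the opposite strand and had 3520 and 3086 counts. Counting used the strand, so reads of the overlapping gene were kept apart by design.

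SLC25A47 showed the largest difference in the other direction. This carrier is expressed mainly in liver and is known for its low level in hepatocellular carcinoma. It lies on chromosome 14 from 100323339 to 100330421 on the plus strand. Its counts were 1522 in FFA and 561 in FFA + 9-cis-RA, or 39.4 and 15.8 TPM, a log2 fold change of -1.41 (-1.55 to -1.27) and a level 2.66-fold lower with 9-cis-RA. Among hepatocyte markers ALB was also lower with 9-cis-RA, at -0.70, as was AFP, at -0.99, while APOA1 at 0.039 and SERPINA1 at 0.036 were near 0 and the median of all 6 was -0.21. Their part in the SLC25A47 value was not tested. Its neighbor SLC25A29, a carrier of basic amino acids that lies 16791 bases away, had -0.47. The other 3 compared protein-coding genes within 50 kb lay between 0.0090 and 0.14.

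SLC25A18 was the third gene past 1 in size. It encodes the second mitochondrial glutamate carrier and lies on chromosome 22 from 17563450 to 17590995 on the plus strand. It was thinly counted, with 122 counts in FFA and 51 in FFA + 9-cis-RA (1.23 and 0.557 TPM), and the interval around its value of -1.21 ran from -1.73 to -0.75, so counting error alone reaches across -1. The 2 compared protein-coding genes within 50 kb had -0.19 and 0.056.

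UCP2 and UCP3 lie next to each other on chromosome 11, with 17030 bases between them, and both had lower counts in FFA + 9-cis-RA. UCP2, at 73974672 to 73983246 on the minus strand, had 3199 and 1717 counts, or 48.1 and 28.0 TPM, a log2 fold change of -0.87 (-0.96 to -0.79) and a level 1.83-fold lower. UCP3, at 74000277 to 74009085 on the same strand and best known from skeletal muscle, had 27 and 14 counts, or 0.385 and 0.217 TPM. Its log2 fold change was also -0.87, but the interval ran from -1.96 to 0.062, so a difference was not detectable at this depth. The other 2 compared protein-coding genes within 50 kb of UCP2 had 0.013 and 0.090. UCP1 was thinly counted as well, at 33 and 36 counts (0.15, -0.57 to 0.88).

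**Figure D3:**
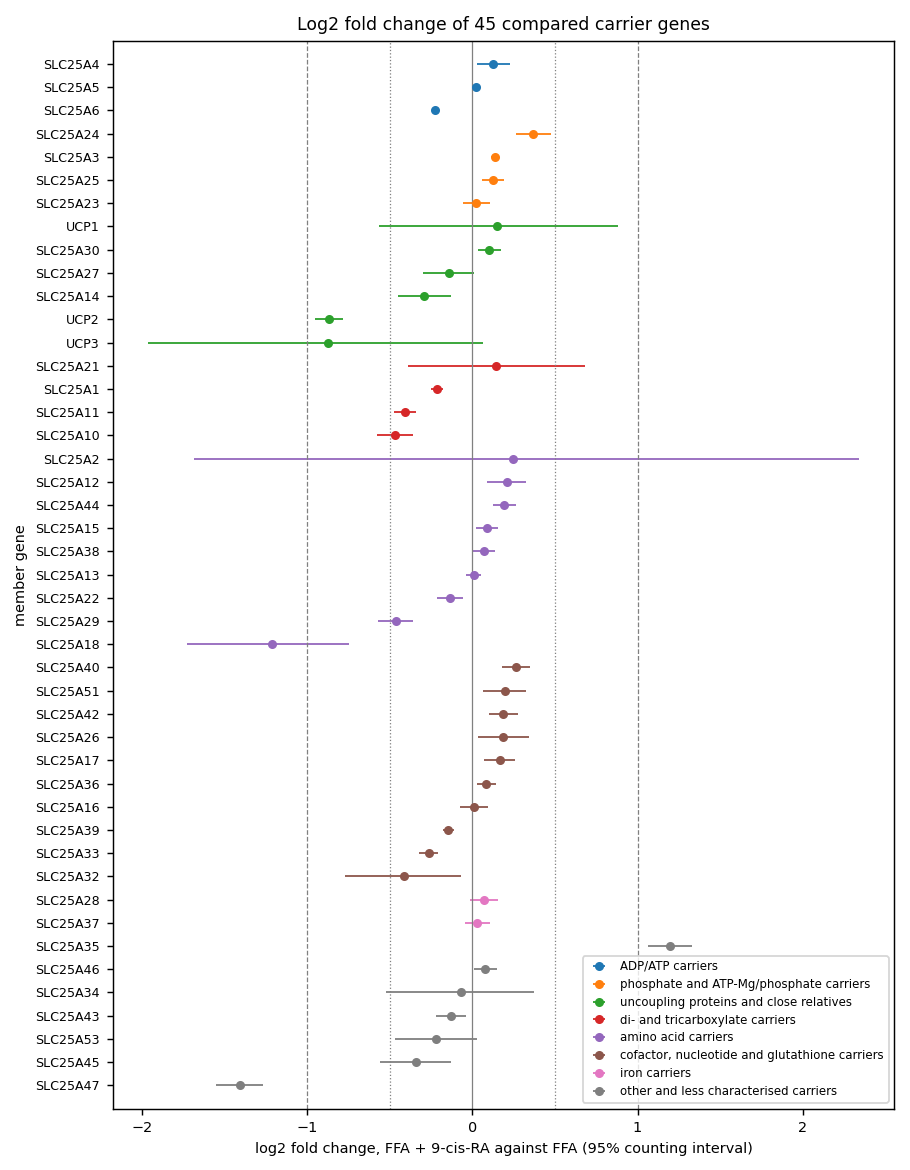
Log2 fold change of FFA + 9-cis-RA against FFA for 45 of the 46 compared carrier genes, colored by substrate group, with bars for the 95% counting interval and lines at 0, 0.5 and 1 in both directions. The bars of SLC25A35 and SLC25A47 lie wholly past 1, whereas the wide bars belong to thinly counted genes such as UCP3 and SLC25A2.

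The starts of 3 of the 4 genes with at least 50 counts and a difference past 0.5 are shown because retinoid receptors bind DNA at short hexamers close to AGGTCA. The stretches are from RefSeq on GRCh38.p14 and lie before the annotated start, outside exons. That of SLC25A47 is chr14:100323187-100323336 on the plus strand, that of SLC25A18 is chr22:17563289-17563438 on the plus strand, and that of UCP2 is chr11:73983308-73983452 on the minus strand. Capitals mark matches on either strand to the TATA box (TATAAA), the CCAAT box, spelled as its name, and the GC box (GGGCGG), and in SLC25A18 the forward and reverse TATA boxes overlap.
SLC25A47: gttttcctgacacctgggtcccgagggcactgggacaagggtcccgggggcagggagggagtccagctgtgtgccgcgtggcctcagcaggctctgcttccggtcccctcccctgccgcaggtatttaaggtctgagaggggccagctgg
SLC25A18: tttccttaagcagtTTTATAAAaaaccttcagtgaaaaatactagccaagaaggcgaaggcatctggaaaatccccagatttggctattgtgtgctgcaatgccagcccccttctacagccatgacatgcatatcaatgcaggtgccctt
UCP2: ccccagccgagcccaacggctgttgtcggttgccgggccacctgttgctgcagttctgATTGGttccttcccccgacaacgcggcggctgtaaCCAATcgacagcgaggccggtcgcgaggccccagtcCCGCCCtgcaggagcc
None of 4 hexamers searched was found on either strand in the windows of these genes, each 250 bases before and 50 after the start. The remaining gene, SLC25A35, had no matched window, so its start was not searched. The genes shown were all lower in the retinoid-treated library. The search thus gives no result for SLC25A35, the gene that was higher. The letters of the hexamers are given with their shares in the next paragraph. The window of UCP3, a gene with fewer than 50 counts that was also lower, held AGGTCA and GGTTCA.

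Over the 54 windows that matched 42 members, 19 windows (35.2%) held at least 1 of these hexamers, beside 38.6% of all 35116 windows. AGGTCA was in 9.26% of member windows and 13.8% of all, GGGTCA in 13.0% and 14.1%, AGTTCA in 13.0% and 10.4%, and GGTTCA in 5.56% and 8.62%. No member window held a pair of them as a direct repeat with 0 to 5 bases between, as 0.564% of all windows did. Member windows were richer in GC, with a median of 65.8% against 58.7%, and held GGGCGG in 64.8% against 45.0% and CCAAT in 46.3% against 34.6%. TATAAA was in 7.41% and 11.5%. Windows of the same gene can overlap, as for SLC25A26, whose windows all held AGTTCA, and SLC25A6 has the same window on X and Y. The windows are thus not independent. The shares count matches of letters in a short window and describe no binding.

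Among the ADP/ATP carriers, which trade matrix ATP for cytosolic ADP, the 2 abundant members differed from each other. SLC25A6 had 64837 counts in FFA and 54399 in FFA + 9-cis-RA (-0.23, -0.24 to -0.21), whereas SLC25A5 had 37634 and 37396 (0.018, -0.0022 to 0.039). SLC25A4, the isoform of heart and muscle, had 1553 and 1663 counts (0.13). SLC25A31, the isoform of testis, had no count in either library, so that a level of up to 3 counts remains possible, which is 0.0493 CPM (counts scaled to the library total) in FFA and 0.0520 CPM in FFA + 9-cis-RA. The group's summed level was 3158 and 3073 TPM. Pseudogenes of SLC25A5 are numerous, with 9 listed, and took 80 and 73 counts, while the 6 of SLC25A6 took none. Reads that fit several of these copies are missing from the counts of both genes.

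The phosphate carriers were the 1 group with 4 or more compared genes in which all values were positive. SLC25A3, which brings phosphate into the matrix for ATP synthesis, had 24875 and 26793 counts (0.13, 0.11 to 0.16). Its calcium-regulated relatives move ATP-Mg against phosphate, and among them SLC25A24 had 1294 and 1640 counts, with 0.37 (0.26 to 0.48) the second highest value of a compared member. SLC25A25 had 0.13 and SLC25A23 had 0.024, and SLC25A41 had too few counts to compare (3 and 5). The summed level was 201 and 234 TPM, a log2 ratio of 0.22 (0.20 to 0.25) on the TPM scale.

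Uncoupling proteins and their close relatives had a median of -0.22, with negative values in 4 of 6 genes. UCP2 had the largest difference in level within the group, whose summed level was 94.4 and 75.8 TPM. SLC25A14 had 718 and 575 counts (-0.29, -0.45 to -0.13), SLC25A27 had 726 and 644 (-0.15, -0.30 to 0.0098) and SLC25A30 had 3297 and 3473 (0.10, 0.033 to 0.17). On the deposited lengths SLC25A30, at 23.1 and 26.4 TPM, was almost at the level of UCP2 in FFA + 9-cis-RA. With principal transcript lengths SLC25A30 was above UCP2 in that library, at 33.8 against 29.1 TPM.

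The di- and tricarboxylate carriers had the lowest median of the 8 groups, -0.31, which became -0.25 with a GC trend over all genes removed. The intervals of 3 of 4 genes lay below 0, beside 25.7% of all genes compared and 34% of those with at least 500 counts. SLC25A1, SLC25A10 and SLC25A11 have 65.6%, 64.9% and 58.3% GC and SLC25A21 has 39.5%. Whether GC content plays a part was not tested. SLC25A1, which exports the citrate used for fatty acid synthesis, had 13664 and 11566 counts (-0.21, -0.25 to -0.18). SLC25A11, an exchanger of oxoglutarate for malate, had 4175 and 3088 (-0.41, -0.48 to -0.34). SLC25A10, the dicarboxylate carrier, had 1674 and 1185 (-0.47, -0.58 to -0.36), but it shares 46.6% of its exonic bases with another gene on the same strand, so reads there were left out. SLC25A21, the oxoadipate carrier, had 59 and 64 counts (0.14). The summed level was 437 and 388 TPM.

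The 9 amino acid carriers had a median of 0.070, and 6 were positive. The aspartate/glutamate carrier SLC25A13 had 8281 and 8168 counts (0.0078, -0.036 to 0.052), and its minor relative SLC25A12 had 1089 and 1234 (0.21). SLC25A15, the ornithine carrier of the urea cycle, had 3729 and 3884 counts, or 42.4 and 48.0 TPM (0.086, 0.021 to 0.15). SLC25A29 had 1766 and 1254 counts, or 11.3 and 8.71 TPM (-0.47, -0.57 to -0.36). The main glutamate carrier SLC25A22 had 2873 and 2567 counts, or 29.8 and 28.9 TPM (-0.13, -0.21 to -0.058), so both glutamate carriers were lower in the FFA + 9-cis-RA library. SLC25A38 had 3681 and 3790 counts (0.070, 0.0039 to 0.14), SLC25A44, a carrier of branched-chain amino acids, had 3031 and 3399 (0.19), and SLC25A2 had only 5 and 6.

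Carriers of cofactors, nucleotides and glutathione had values between -0.41 and 0.26 with a median of 0.085. SLC25A39 had 16364 and 14505 counts (-0.15, -0.18 to -0.11), while its relative SLC25A40 had 2091 and 2465 (0.26, 0.18 to 0.35). The pyrimidine nucleotide carriers likewise stood on both sides of 0, SLC25A33 with 5210 and 4253 counts (-0.27) and SLC25A36 with 5175 and 5384 (0.085). The lowest value belonged to SLC25A32, linked to folate and FAD transport, with 162 and 119 counts, or 2.11 and 1.68 TPM (-0.41, -0.77 to -0.067), and 69.7% of its exonic bases lie in another gene on the same strand. SLC25A17, a peroxisomal relative, had 1672 and 1838 counts, or 20.0 and 23.8 TPM (0.16, 0.068 to 0.26). SLC25A51, which brings NAD into the matrix, had 922 and 1036 counts (0.20), and SLC25A42, a coenzyme A carrier, had 2035 and 2273 (0.19). SLC25A16 had 2438 and 2407 counts (0.0092) and SLC25A26, the carrier of S-adenosylmethionine, had 646 and 721 (0.19). SLC25A52 had 1 and 2 counts, too few to compare.

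Both iron carriers, the mitoferrins, were close to 0. SLC25A28 had 2328 and 2396 counts (0.069, -0.014 to 0.15) and SLC25A37 had 2766 and 2768 (0.029, -0.048 to 0.11). The less characterised group held both extremes of the family, SLC25A35 and SLC25A47. In the same group SLC25A45 had 408 and 315 counts (-0.34, -0.56 to -0.13), SLC25A43 had -0.13, SLC25A53 had -0.22, SLC25A46 had 0.077 and SLC25A34 had -0.072. SLC25A48 had 1 count in each library.

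Ratios within 14 pairs of related carriers need no scaling between libraries. The interval of the shift left out 0 for 12 pairs, and 3 shifts were past 0.5. No share over pairs of other genes was computed. Among single genes with at least 500 counts, the interval lay above 0 for 33.2% and below 0 for 34%, which is a measure unlike a shift between paired genes. Some genes, such as SLC25A5 and SLC25A24, enter more than a single pair, so the pairs are not independent. SLC25A22 over SLC25A18, per gene length, was 24.2 in FFA and 51.8 in FFA + 9-cis-RA, a shift of 1.10 (0.62 to 1.57) on the log2 scale. SLC25A15 over SLC25A29 was 3.76 and 5.51 (0.55, 0.43 to 0.68), a shift that comes mostly from the lower count of SLC25A29. The ratio of SLC25A32 to SLC25A17 was 0.106 and 0.0707 (-0.58, -0.94 to -0.23). Reads in the 69.7% of exonic bases that SLC25A32 shares with another gene were left out, which lowers both ratios. Among the abundant pairs SLC25A5 took 36.7% of its summed level with SLC25A6 in FFA and 40.7% in FFA + 9-cis-RA (0.24, 0.22 to 0.27), and SLC25A39 took 91.9% and 89.5% of its level with SLC25A40 (-0.41, -0.50 to -0.32). For SLC25A28 over SLC25A37 the shift was 0.040 (-0.072 to 0.15), and for SLC25A10 over SLC25A11 it was -0.063 (-0.19 to 0.063), with both intervals holding 0.

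**Figure D4:**
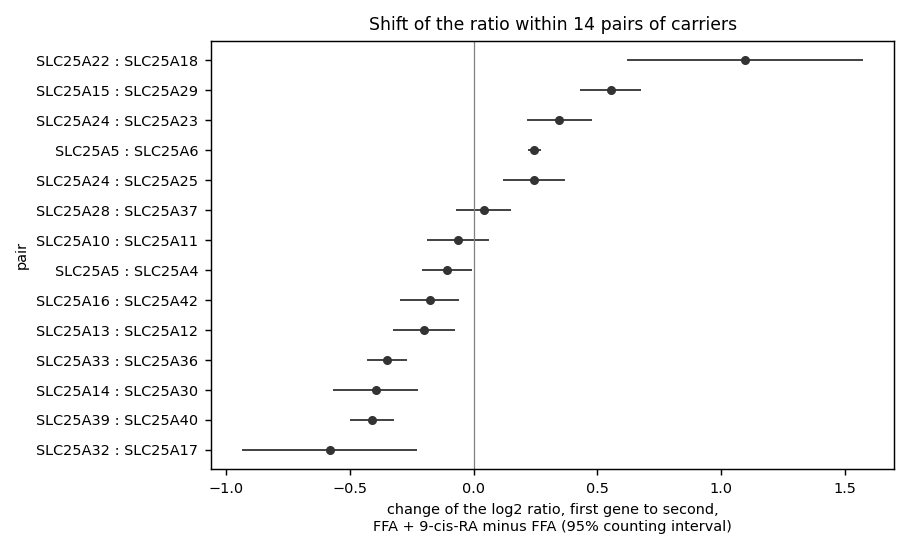
Change of the log2 ratio of the first to the second gene, FFA + 9-cis-RA minus FFA, for 14 pairs of related carriers with bars for the 95% counting interval. SLC25A22 over SLC25A18 lies farthest to the right at 1.10 and SLC25A32 over SLC25A17 farthest to the left at -0.58.

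Members with more GC had lower values in the middle. Of 16 compared members whose principal transcript had at least 55% GC, 11 were negative, with a median of -0.18, and of 30 members with less GC 9 were negative, with a median of 0.081. The corresponding medians were -0.046 and -0.0078 over all genes compared, and -0.029 and 0.017 over all genes with at least 500 counts. The share of negative values in each GC class was not computed for all genes. With a GC trend over all genes removed, the medians of the members were -0.11 and 0.089, with 11 and 9 negative. The GC-rich class held SLC25A47, UCP2, SLC25A10 and SLC25A29 but also SLC25A35, at 55.5% GC, the member with the highest value, and SLC25A42 and SLC25A25, which were positive as well. Whether GC content plays a part was not tested.

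The carriers were set beside other mitochondrial genes. Negative values were found for 43.5% of compared members, 52.3% of all genes and 49.2% of all genes with at least 500 counts. The 13 genes that import and insert carrier proteins (TOMM and TIMM subunits and AGK) lay between -0.31 for TIMM13 and 0.28 for TIMM29, with a median of -0.11. The 17 other membrane transporters, such as VDAC and pyruvate carrier genes, lay between -0.27 for SFXN5 and 0.25 for ABCB10, with a median of 0.0018. ATP synthase subunits, which use the ADP and phosphate brought in by carriers, had a median of -0.17, with 13 of 16 negative. ATP5ME, a small subunit of its membrane part, was the lowest, with 2413 and 928 counts (-1.35, -1.46 to -1.24), and ATP5MF the highest (0.31). Of 59 respiratory chain subunits 41 were negative (median -0.050), with COX6B1 lowest at 6105 and 3719 counts (-0.69) and NDUFS4 highest at 856 and 1214 (0.53). Of 77 mitochondrial ribosomal proteins 63 were negative (median -0.15), with MRPL21 lowest at 2534 and 1441 counts (-0.79) and MRPL39 highest (0.20). The difference between these lists and the carriers was not tested.

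Enzymes that work with the citrate and aspartate/glutamate carriers had a median of -0.050 over 7 genes. The highest was CS, citrate synthase, with 27428 and 35809 counts (0.41, 0.39 to 0.44), and the lowest was MDH1, the cytosolic malate dehydrogenase, with 11394 and 9337 (-0.26). ME1, a cytosolic malic enzyme, had only 2 and 3 counts. Genes that use mitochondrial iron had a median of 0.079 over 10 genes, and FDX2, the lowest, had 17 and 6 counts and shares 70.9% of its exonic bases with another gene, while FECH, the enzyme that inserts iron into heme, was highest (0.33). Of 8 regulators of mitochondrial gene expression 6 were negative, with PPARGC1A lowest (-0.26) and NRF1 highest (0.069).

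**Figure D5:**
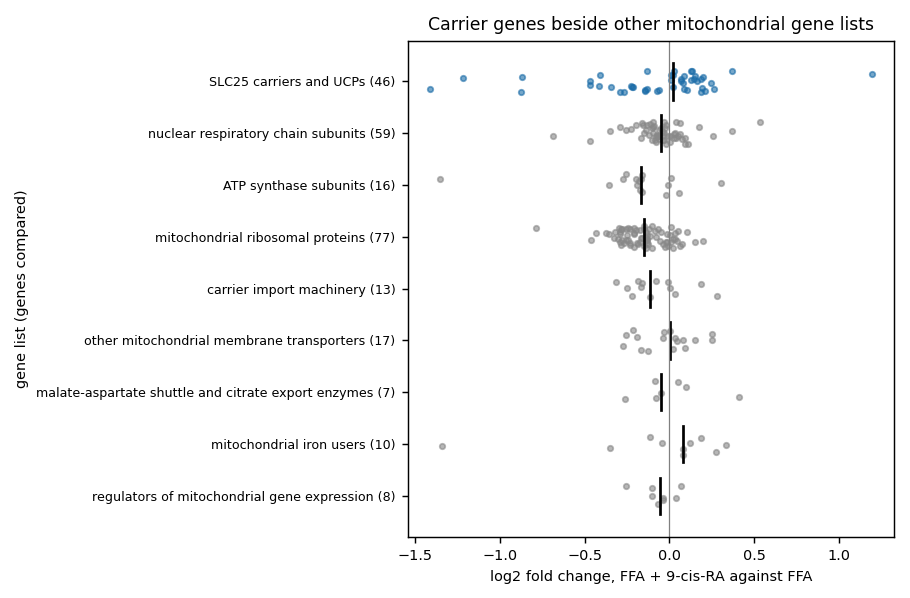
Log2 fold change of FFA + 9-cis-RA against FFA for carrier genes (blue) and 8 other mitochondrial gene lists (grey), with a point per compared gene and a black line at the median. The carrier median is 0.021, that of ATP synthase subunits is -0.17 and that of mitochondrial ribosomal proteins is -0.15, and all medians lie within 0.2 of 0.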

How the data were processed

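Both groups of HepG2 cells had 1 RNA-seq library. The deposited values are raw counts of fragments per gene, which the authors obtained with featureCounts version 2.0.1. Only fragments with 2 mapped ends and an accepted length were counted, with the libraries treated as reverse-stranded. Fragments that mapped to several places or overlapped several genes were left out, which lowers near-identical and overlapping genes. The build was GRCh38 per the labels. The aligner and the annotation release are not given in the sources used here. The study names DESeq2 with adjusted p-values, which cannot be tested with 1 library per group.

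Gene symbols came from GENCODE release 29, which held 58516 of 60623 entries, and 42005 had a symbol. Size factors were from DESeq2 1.42.0 and TMM factors from edgeR 4.0.16, in R 4.3.3. TPM used the deposited gene length. The log2 fold change used a pseudocount of 1, which understates changes of low genes. Exact 95% intervals came from scipy 1.17.1, loess trends (span 0.3) from statsmodels 0.14.6 and plots from matplotlib 3.10.9, with pandas 2.3.3 and numpy 2.4.6 under Python 3.11.15. The steps were tested on simulated data. Windows at gene starts came from RefSeq on GRCh38.p14 and matched 42 members. In all, 1 member is counted in the totals but not reported by name here.

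The members and all lists were chosen with earlier results of these data known. Named in full are members with 50 counts or more in both libraries together and a log2 fold change of 0.5 or more in size, the 8 with the highest mean level, UCP1 to UCP3, and both genes of pairs whose shift was past 0.5 with an interval leaving out 0. From the other lists, genes past 0.5 and the extremes are named. Further members named with their group were chosen after their values were seen. The alternatives tried were scaling by TMM or by total counts, a pseudocount of 0.1 or 5, no count minimum or a minimum of 50, removal of trends on mean expression, gene length and GC content, and the whole interval past the threshold.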

Additional observations from a re-analysis of the deposited data

How the results depend on the processing

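No paired analysis was possible because each group has 1 library and the labels give no replicate numbers. The family's summed level depended most on the processing. Its log2 ratio of -0.029 on the TPM scale became -0.099 with TMM scaling, -0.070 with total-count scaling and -0.12 with DESeq2 size factors. Staying on the TPM scale it was positive with principal transcript lengths (0.017) and without SLC25A6 (0.043), but with size factors both were negative (-0.070 and -0.048). The size-factor, length and SLC25A6 alternatives were chosen after seeing the data. Without a count minimum 3 members were above 0.5, since SLC25A41 and SLC25A52 joined on 8 and 3 counts. With the whole interval required past the threshold 1 member was below -1, because SLC25A18 no longer counted, and 3 in place of 4 were below -0.5, as also with a minimum of 50 counts. The other counts of members past a threshold were the same under each alternative run. The members' median ran from 0.021 to 0.070. The medians of the single genes' lower and upper interval bounds were -0.114 and 0.105. These bounds are wider than the error of a median over many genes would be. Group medians kept their sign, although that of the ADP/ATP carriers ran from 0.018 to 0.12 and that of the di- and tricarboxylate carriers from -0.31 to -0.23. In all, 43 values of groups and single genes moved and none changed direction. Single genes were held against their counting interval, and group medians against the medians of their genes' interval bounds. Setting the median of the other mitochondrial genes to 0, also chosen after seeing the data, moved the median of all genes by 0.11. Under all settings SLC25A35 lay between 1.19 and 1.30, SLC25A47 between -1.41 and -1.30, SLC25A18 between -1.23 and -1.10, and UCP2 between -0.88 and -0.76. Differences between cultures of one treatment could not be measured.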

Other observations

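Few counts were assigned to the family's pseudogenes. Fragments that mapped to several places were left out, so these counts cannot show how much RNA such copies made. Of 42 listed pseudogenes 9 had a count, with 131 counts in FFA and 111 in FFA + 9-cis-RA, and the most counted was SLC25A38P1, a pseudogene of the glycine carrier, with 45 and 33 counts. Among transcripts antisense to carriers only SLC25A25-AS1 was well counted, with 1334 and 1489 counts and a log2 fold change of 0.19 (0.079 to 0.29), beside 0.13 for SLC25A25 itself. SLC25A30-AS1 had no count in FFA and 8 in FFA + 9-cis-RA, and SLC25A5-AS1 had 46 and 45.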
